A study of Mus musculus with 24 samples.

Results

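The sites described here are the accessible regions that were called in every ATAC-seq library of a study of CTCF and the chromatin remodellers CHD4 and CHD8 in mouse embryonic stem cells. ATAC-seq uses a transposase to insert sequencing adapters into accessible DNA, and a peak is an interval with more insertions than its surroundings. The sites were selected on the measured overlap of peaks: a peak on chromosomes 1 to 19 of the first library of the untreated control line (Ctrl_rep1) was taken if it overlapped, by at least 1 bp, a peak in each of the other 23 lists. Of 129660 Ctrl_rep1 peaks, 11608 met this rule, which is 8.95%. They are called shared sites below. Their presence in all lists is the rule and not a finding, and so is any strength or width that makes such overlap more likely.

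All 24 libraries came from the E14 line with CTCF fused to an auxin-inducible degron (CTCF AID), a tag through which the auxin IAA triggers degradation of the protein. A control line (overexpressed control) gave libraries before IAA and after a 12 h exposure to it. Lines that overexpressed wild type CTCF or a mutated CTCF gave libraries after the same exposure only; what the mutation changes is not stated in the labels. In the Chd4 and Chd8 sets, CTCF AID cells without IAA carried the hairpin shluci or 1 of 2 hairpins (shRNA1, shRNA2). In the serum set, CTCF AID cells labelled as in serum condition gave libraries with no IAA and with a 12 h exposure. Each of the 12 groups held 2 libraries: 8 in the CTCF lines, 6 in the Chd4 set, 6 in the Chd8 set and 4 in the serum set. Nothing in the labels says that replicates were separate cultures, so p-values measure only the spread between these libraries. The growth protocol names serum-free medium with LIF, PD0325901 and CHIR99021 for all 24 libraries, against the serum labels of 4 of them. Peak names inside both serum lists with IAA carry replicate numbers other than their labels, and the labels were followed. Differences between sets cannot be told apart from differences between experiments.

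As background, active promoters of broadly used genes often lie in CpG islands, stretches rich in the CpG dinucleotide that stay free of DNA methylation and hold a nucleosome-depleted region in most cell types. CTCF is a zinc finger protein that binds a long GC-rich element, displaces nucleosomes around it and stops cohesin during loop formation. CHD4 is the remodelling ATPase of the NuRD complex, and CHD8 is a related remodeller that occupies active promoters and is known for its mutation in autism.

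The first 6 sequences below are stretches without an annotated exon at promoters among the shared sites, read from GRCm38 on the strand of the gene. Cep97, Armh4, Tasp1 and 1810022K09Rik had the highest mean rank of all promoters, and Chd8 and Nanog are genes of the study's subject. Capitals mark exact matches to any of 14 short promoter and enhancer motifs on either strand, which are listed with their shares further on.
Cep97, chr16:55934856-55934997, minus strand: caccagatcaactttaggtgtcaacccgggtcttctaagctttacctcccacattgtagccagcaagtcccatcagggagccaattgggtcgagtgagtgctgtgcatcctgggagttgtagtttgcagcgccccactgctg
Armh4, chr14:49783384-49783528, minus strand: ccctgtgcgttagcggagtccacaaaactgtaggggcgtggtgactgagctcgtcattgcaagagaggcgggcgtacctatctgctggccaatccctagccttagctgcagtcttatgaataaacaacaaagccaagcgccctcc
Tasp1, chr2:140066806-140066934, minus strand: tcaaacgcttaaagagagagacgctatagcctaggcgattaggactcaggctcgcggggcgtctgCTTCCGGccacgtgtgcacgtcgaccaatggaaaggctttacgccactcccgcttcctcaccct
1810022K09Rik, chr3:14611299-14611448, minus strand: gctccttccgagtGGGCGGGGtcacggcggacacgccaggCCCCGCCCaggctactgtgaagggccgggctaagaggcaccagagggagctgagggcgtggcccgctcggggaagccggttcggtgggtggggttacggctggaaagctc
Chd8, chr14:52257833-52257982, minus strand: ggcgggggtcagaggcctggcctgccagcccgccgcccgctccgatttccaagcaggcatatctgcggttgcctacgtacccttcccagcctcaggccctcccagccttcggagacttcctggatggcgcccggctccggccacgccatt
Nanog, chr6:122707339-122707488, plus strand: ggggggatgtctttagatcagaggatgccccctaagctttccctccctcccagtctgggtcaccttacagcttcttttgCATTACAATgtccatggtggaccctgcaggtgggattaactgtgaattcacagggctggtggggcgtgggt
The stretch at 1810022K09Rik holds 2 GC boxes, that at Tasp1 an ETS core, and that at Nanog the middle of a joint OCT4 and SOX2 element. The other 3 stretches hold no exact match to these letters.

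The next 4 sequences are CTCF consensus matches of shared sites among those whose rank fell most with IAA in both media, with 25 bases on each side and the 14-base match in capitals.
Gm47372, chr12:98675031-98675094, plus strand: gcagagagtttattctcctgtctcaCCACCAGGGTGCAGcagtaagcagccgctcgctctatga
Gm25663, chr1:143814081-143814144, plus strand: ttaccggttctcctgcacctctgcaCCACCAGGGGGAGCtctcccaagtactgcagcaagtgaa
Lpar5, chr6:125082039-125082102, minus strand: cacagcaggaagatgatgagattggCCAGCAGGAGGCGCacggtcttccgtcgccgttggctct
C1rl, chr6:124492997-124493060, plus strand: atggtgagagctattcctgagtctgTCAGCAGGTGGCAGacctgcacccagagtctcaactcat
Each of the 4 differs from the consensus at 1 position. Gm47372 and Gm25663 are the genes of the nearest annotated start, C1rl names the promoter in which its site lies, and Lpar5, a lysophosphatidic acid receptor, the gene whose coding exon holds the site.

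Shared sites were mostly strong and wide peaks of Ctrl_rep1, as the rule makes likely. Their median width in that list was 914.5 bp (quartiles 705.75 and 1174 bp, range 146 to 3032 bp), and the other Ctrl_rep1 peaks had a median of 343 bp. The authors' −log10 p of the peak had a median of 84.8 among shared sites and 13.6 among the others. Of the 10% of peaks with the lowest −log10 p, 1 was shared, and of the 10% with the highest, 6402 of 12966 (49.4%). By width, 8 of 36587 peaks under 250 bp (0.0219%) and 176 of 283 peaks of at least 2000 bp (62.2%) were shared. Peaks just outside the rule, found in 22 of the other 23 lists, numbered 6363, with a median width of 792 bp and a median −log10 p of 59.4. Strength alone did not place a peak in all lists: the strongest Ctrl_rep1 peak of all, with a −log10 p of 1792, was found in fewer than 12 of the others.

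**Figure D1:**
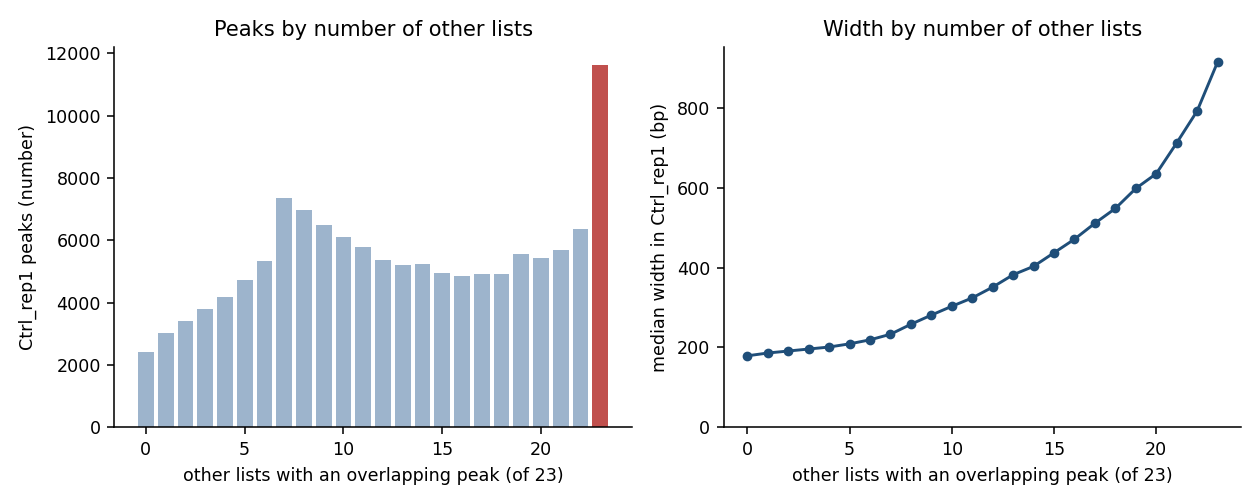
Left, the number of Ctrl_rep1 peaks on chromosomes 1 to 19 by the number of other lists (0 to 23) with an overlapping peak, with the 11608 shared sites (named members in the plots) in red. Right, the median width in bp of the same peaks, which reached 914.5 bp for the shared sites.

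The 6363 peaks with 1 list missing lacked it mainly in the Chd4 set. Of these peaks, 4826 (75.8%) were missing from a Chd4 list, 977 from a serum list, 520 from a Chd8 list and 40 from a list of the CTCF lines. Within the Chd4 set, shRNA2 accounted for 1448 and 1416, shRNA1 for 645 and 951, and shluci for 151 and 215 in replicates 1 and 2. Without the 6 Chd4 lists, 24514 Ctrl_rep1 peaks would have been found in all the remaining 18. The strongest 10% of Ctrl_rep1 peaks were found at 72.7% to 95.3% in the Chd4 lists, 92.5% to 96.1% in the serum lists, 96.8% to 98.5% in the Chd8 lists and at least 99.9% in the 7 other lists of the CTCF lines. A peak missing from a list was not called there, and the site may still be accessible at a lower level. The 5 strongest peaks that missed the rule by 1 list were all missing from a Chd4 shRNA list. They comprise the promoters of Msmo1 (a sterol synthesis enzyme), Hibch (valine breakdown), Ell2 (a transcription elongation factor) and Desi2, with −log10 p of 364, 363, 324 and 318, and an intergenic site 64423 bp from the start of Gm17777 with 322.

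Promoters of protein-coding genes formed the largest class of shared sites. By the summit in Ctrl_rep1, 5266 shared sites (45.4%, 95% Wilson interval 44.5% to 46.3% for counting error only) lay within 500 bp of an annotated transcription start, against 10.1% of the other peaks. Of these, 4854 were protein-coding promoters (41.8%, against 7.65%), 270 long noncoding and 142 other. Introns held 2880 shared sites (24.8%, against 48.2% of other peaks) and intergenic sequence 2 to 100 kb from a gene held 2371 (20.4%, against 28.5%). Coding exons held 254, 3′ UTRs 108, 5′ UTRs 46 and noncoding exons 83. A further 427 lay within 2 kb of a gene and 173 beyond 100 kb. Promoters were thus more frequent among shared sites and introns less, yet 6342 shared sites (54.6%) lay away from any start. The share of each class that was shared ran from 35.0% of protein-coding promoter peaks to 4.03% of 3′ UTR peaks.

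**Figure D2:**
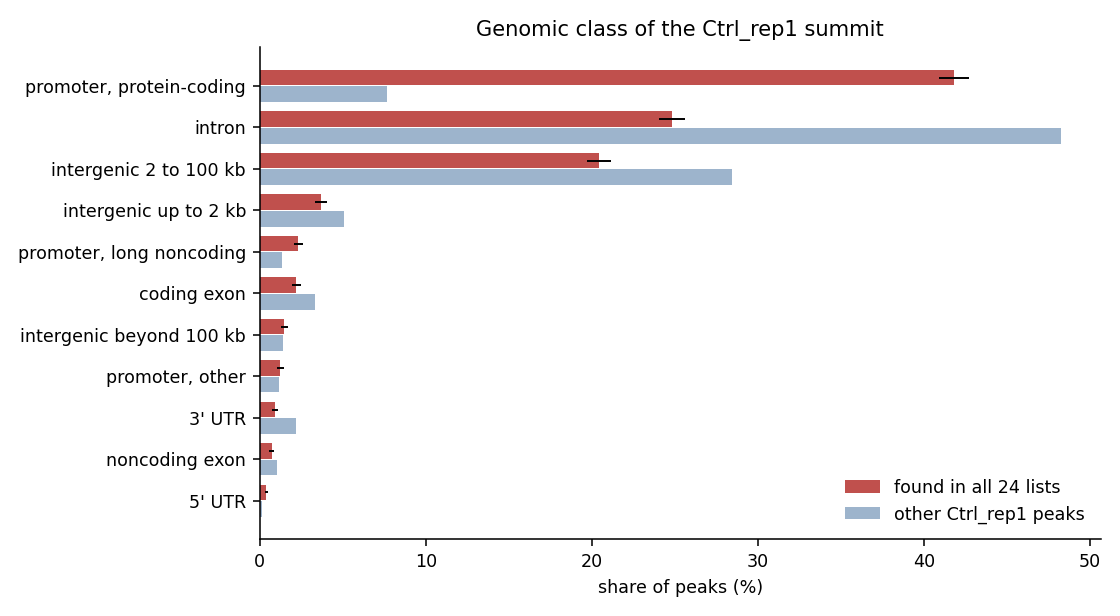
Share (%) of shared sites (red, with 95% Wilson intervals for counting error) and of other Ctrl_rep1 peaks (blue) in each genomic class of the summit. Protein-coding promoters made up 41.8% of shared sites and 7.65% of other peaks, and introns 24.8% and 48.2%.

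Within the upper ranges of strength the promoter share was also higher among shared sites, although strength still varies within a range, from 77.3 to 1792 in −log10 p for the highest. In the 3 lowest ranges of 10% each, with 1, 4 and 7 shared sites, none was a promoter, against 4.34%, 4.92% and 5.05% of the other peaks. Among the strongest 10% of Ctrl_rep1 peaks, 55.7% of shared sites and 39.3% of the other peaks were promoters. In the next 10% the shares were 38.6% and 22.3%, and in the 10% below that 27.1% and 13.9%. Without the requirement for the 6 Chd4 lists, an alternative chosen after seeing the data, 42.2% of the 24514 sites were promoters. Widths differed between classes. The median was 1290 bp for the 46 sites in 5′ UTRs, 1047 bp for protein-coding promoters, 968.5 bp for coding exons, 912 bp for intergenic sites within 2 kb of a gene, 899.5 bp for long noncoding promoters, 822 bp for introns, 776 bp for intergenic sites 2 to 100 kb from a gene and 707 bp for those beyond 100 kb.

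Shared promoters were rich in CpG. In the window of 250 bp on each side of the summit, the median GC content was 62.1% for shared promoters and 49.5% for shared sites elsewhere, and the observed over expected ratio of CpG was 0.761 and 0.252. Other promoter peaks had a median CpG ratio of 0.654 and other peaks elsewhere 0.222. Among protein-coding promoters alone the difference was smaller, with a ratio of 0.772 for shared sites and 0.737 for other peaks. Their median GC content was 62.7% and 62.3%. By the usual limits of a CpG island for composition (ratio above 0.6, GC above 50%), 38.8% of shared sites and 7.83% of other peaks qualified. Of the peaks found in 22 of the other 23 lists, 31.5% qualified and 35.3% were at promoters. Annotated starts on both strands within 500 bp, the layout of a bidirectional promoter, occurred at 882 of 5266 shared promoters (16.7%) and 1039 of 11964 other promoter peaks (8.68%). Across chromosomes the shared fraction of Ctrl_rep1 peaks ranged from 6.15% on chromosome 11 to 11.7% on chromosome 3.

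Short motifs were counted as exact matches on both strands in the same window, with overlapping motifs counted separately. The GC box GGGCGGGG, bound by SP factors, was present at 22.5% of shared sites and 8.05% of other peaks. The ETS core CCGGAAG was present at 13.2% and 5.2%, the CCAAT box CCAATCA of NF-Y at 11.1% and 7.58%, and the cyclic AMP response element TGACGTCA at 2.23% and 0.773%. Among promoters alone the shares were 37.0% and 32.1% for the GC box and 21.7% and 15.2% for the ETS core. NRF1 (GCATGCGC) was at 3.32% and 1.63%, YY1 (AAGATGGCG) at 2.10% and 1.19%, USF (CACGTGAC) at 2.87% and 1.85%, and ZNF143 (ACTACAAT) at 1.11% and 0.906%. Within classes some of these differences were small or reversed: USF at promoters was at 3.85% and 3.82%, and away from promoters YY1 was at 0.820% and 0.988% and the cyclic AMP response element at 0.536% and 0.554%. Over all classes, other motifs were less frequent in shared sites: AP-1 (TGACTCA) at 7.93% and 10.5%, SOX (ACAATGG) at 7.52% and 9.44%, KLF (GGGTGTGG) at 7.06% and 8.76%, and ESRRB (TCAAGGTCA) at 1.76% and 2.80%. The octamer ATTTGCAT, bound by POU factors such as OCT4, was at 4.98% and 4.37% over all classes, and the middle of the joint OCT4 and SOX2 element (CATNACAAT) at 2.27% and 2.41%. Away from promoters, all 3 were more frequent in shared sites, the octamer at 7.08% and 4.61%, the joint element at 3.75% and 2.59% and SOX at 11.1% and 9.99%. The differences for AP-1, KLF and ESRRB were smaller there, at 10.82% and 10.99%, 8.37% and 8.98%, and 2.76% and 3.002%. At promoters these motifs were at 4.44% and 6.19%, 5.49% and 6.78%, and 0.551% and 0.978%. A match is a description of the sequence and not evidence of binding.

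The shared promoters belonged to 5301 of 20780 autosomal protein-coding genes (25.5%). Any Ctrl_rep1 peak was at a start of 65.6% of these genes, and a site found in all 18 lists outside the Chd4 set at 48.9%. These shares are the background for the gene lists that follow, which were described by counts without a test. In each list a gene counted if a summit of Ctrl_rep1 lay within 500 bp of one of its starts.

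Genes for DNA replication had the highest share of the 16 lists. Among replication licensing and origin genes, 13 of 21 had a shared site, and all 21 had a site found in the 18 lists outside the Chd4 set. The 13 include Mcm3, Mcm4, Mcm5, Mcm6 and Mcm7 of the replicative helicase, Orc1, Orc4, Orc5 and Orc6 of the origin recognition complex, Cdc45, and Gins1, Gins3 and Gins4. Ranks were formed within each library among the 11608 shared sites by −log10 p, from 0 for the weakest to 100 for the strongest. The mean rank over 24 libraries was 85.1 at Orc4, 83.3 at Orc5 and 45.8 at Mcm7. Proteasome subunits followed with 15 of 33 (31 of 33 without the Chd4 lists), among them Psmc3 at a mean rank of 78.2 and Psmd2 at 30.0. Mitochondrial ribosomal proteins had 29 of 77 (62 without the Chd4 lists). Canonical histone genes had 25 of 67 (41 without the Chd4 lists), where neighbouring genes such as Hist1h2ae and Hist1h2bg share 1 site. The lists also differ in how many genes have any Ctrl_rep1 peak at a start. Counted over such genes only, the share was 61.9% for replication, 45.5% for proteasome and 51.0% for histone genes. That of all protein-coding genes was 38.9%.

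Cytosolic ribosomal protein genes, which are among the most transcribed genes, had a share near that of all protein-coding genes (25.5%). A shared site lay at 17 of 79 (21.5%), while 77 of the 79 had a Ctrl_rep1 peak and 52 had a site in the 18 lists outside the Chd4 set. Counted only over genes with a Ctrl_rep1 peak at a start, the share was 22.1%, against 38.9% of all protein-coding genes and 38.2% of the mitochondrial ribosomal list. Rps13 had the highest mean rank of the 17 with 92.5 and Rpl9 the lowest with 28.7. RNA polymerase II subunits had 2 of 12 (Polr2b and Polr2d) and NuRD subunits 2 of 13 (Hdac2 and Rbbp4). Among CTCF and cohesin genes, 3 of 11 had a shared site (the cohesin loader subunit Mau2, the cohesin release factor Wapl and the acetyltransferase Esco1), and 10 of 11 had a site outside the Chd4 set.

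Of 20 pluripotency genes, 3 had a shared site: Nanog, Esrrb and Tfcp2l1, with mean ranks of 28.8, 17.9 and 36.6. Without the Chd4 lists the count was 12, and 18 had a Ctrl_rep1 peak. Over those 18 the share with a shared site was 16.7%, against 38.9% of all protein-coding genes with such a peak. Neural regulators had 4 of 18 (Pax6, Olig1, Lhx2 and Pax3), endoderm and mesoderm regulators 2 of 20 (Foxa2 and Mixl1), trophoblast regulators 2 of 9 (Tfap2c and Ets2) and fibroblast genes 1 of 9 (Pdgfra). Immediate-early genes had 1 of 14 (Jun) and terminal tissue genes 1 of 20 (Mbp, a myelin protein). Olfactory receptors, known for their expression in sensory neurons of the nose, had 1 of 1086. Outside protein-coding genes, 90 of 386 tRNA genes of RefSeq (23.3%) overlapped a shared site and 225 (58.3%) any Ctrl_rep1 peak. Accessibility at a start does not give the gene's transcription.

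**Figure D3:**
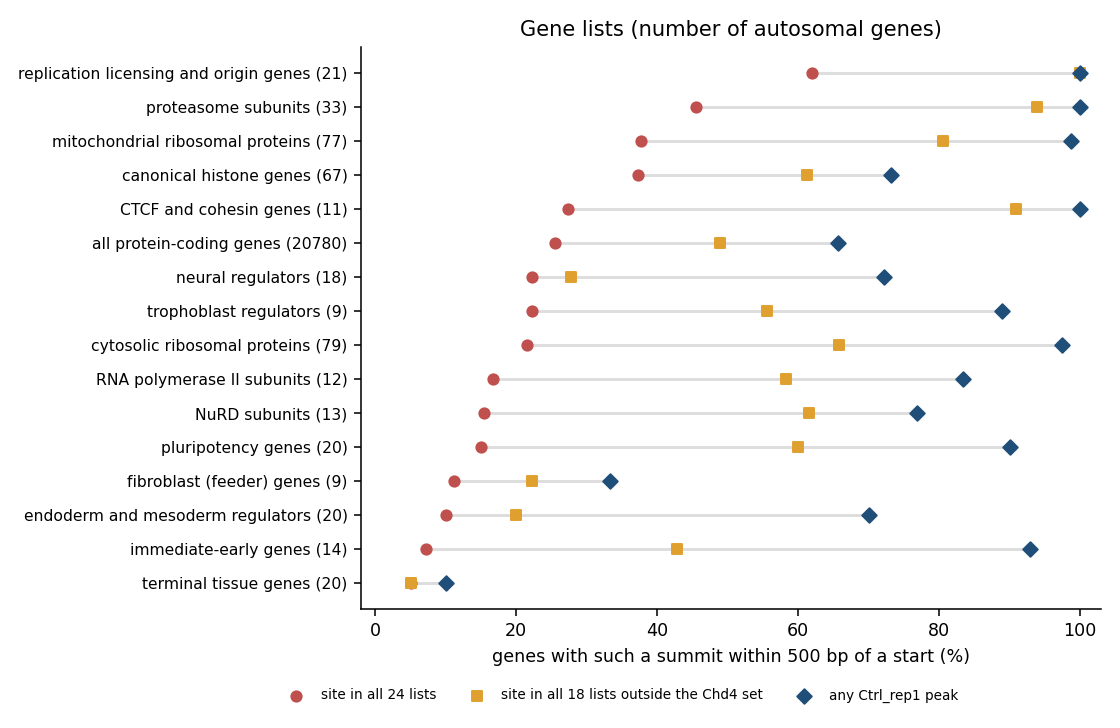
Share (%) of the autosomal genes of each list with a Ctrl_rep1 summit within 500 bp of a start, for shared sites (red circles), for sites in all 18 lists outside the Chd4 set (orange squares) and for any Ctrl_rep1 peak (blue diamonds); the number of genes is in parentheses. Replication genes reached 61.9% for shared sites against 25.5% of all protein-coding genes. Every plotted list but that of terminal tissue genes gained genes when the Chd4 lists were set aside. Olfactory receptors are not plotted.

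Among the genes of the study's subject, Chd8 had a shared site at its promoter (chr14:52257401-52258230, 830 bp). Its rank lay between 96.5 and 98.9 in the 8 libraries of the CTCF lines and between 11 and 98.9 over all 24, with the lowest value in Chd4 shRNA2 replicate 1. The Nanog promoter site (chr6:122707042-122707644, 603 bp) ranked from 3.33 to 62.0. The promoter peak of Ctcf, of 1926 bp, was found in 22 of 23 lists and was missing from Chd4 shRNA2 replicate 1. Peaks at Sox2 and Gapdh, a glycolytic enzyme, were found in 20 and 21 lists, with 3 and 2 Chd4 lists missing. The Ctrl_rep1 peak at Chd4 itself was a weak one of 336 bp, found in 7 lists. Pou5f1 and Actb had no Ctrl_rep1 summit within 500 bp of a start. The Actb peak spanned its start with a summit 768 bp away and was missing from 5 Chd4 lists. The nearest summit to a Pou5f1 start was at 1037 bp, in a peak missing from 2 Chd4 lists.

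In the lists themselves, most shared sites were among the stronger peaks. The strongest overlapping peak stood at a median percentile of 81.9 to 94.1 of its own list by −log10 p. Where a site held several peaks, only the strongest was counted. The weakest 10% of shared sites lay below percentiles of 36.2 to 78.0, with 36.2 in Chd4 shRNA2 replicate 2. The authors' fold over background had a median of 11.3 to 14.3 at shared sites in the CTCF lines against 5.31 to 6.10 over the whole lists. In the Chd4 set these ranges were 6.77 to 9.21 and 4.09 to 5.23, in the Chd8 set 9.0 to 10.2 and 4.51 to 4.98, and in the serum set 6.48 to 7.45 and 4.54 to 4.74. Peaks on shared sites made up 8.41% to 24.4% of a list. Lists held 59786 to 166697 peaks, and the read depth behind them is unknown.

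The form of the peak at a shared site differed between the sets. Peaks there were narrow in the Chd4 and Chd8 sets, with medians of 130 to 287 bp and 176 to 488 bp. In the serum set medians were 696 to 834 bp, and in the CTCF lines 802 to 975.5 bp. The 2 Chd sets thus did not overlap with the other 2 sets. Over all peaks of a list the medians were 80 to 135 bp in the Chd4 set, 75 to 138 bp in the Chd8 set, 371 to 416 bp in the serum set and 283 to 456 bp in the CTCF lines. In the Chd sets a shared site often held several peaks: 2 or more at 49.7% to 77.4% of sites, against at most 8.98% in the CTCF lines and 8.74% in the serum set. Whether this comes from the cells, the fragments sequenced or the calling was not tested.

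The summits were also placed differently. The summit of the strongest overlapping peak lay a median of 18 to 24 bp from that of Ctrl_rep1 in the other 7 libraries of the CTCF lines. That distance was 50 to 58 bp in the serum set. The summit lay 156 to 168 bp away in the Chd8 set and 166 to 202 bp in the Chd4 set. In both Chd sets the distances had 2 modes, the first at 50 to 75 bp (7.66% of shared sites in the Chd4 set, 8.94% in the Chd8 set) and the second at 200 to 225 bp (7.63% and 7.73%), with 5.85% and 5.64% at 125 to 150 bp between them. At protein-coding promoters with starts on 1 strand only, 36.4% to 46.8% of summits in the Chd sets lay over 100 bp downstream of the Ctrl_rep1 summit along the gene and 27.2% to 37.4% over 100 bp upstream. In the CTCF lines these shares were at most 8.32% and 6.36%.

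The base at the Ctrl_rep1 summit was therefore not always inside a peak. It was covered at 99.6% to 100% of shared sites in the CTCF lines and at 96.1% to 98.1% in the serum set. In the Chd8 set it was covered at 51.9% to 76.7%. In the Chd4 set it was covered at 54.8% and 61.9% with shluci, 29.0% and 29.4% with shRNA1 and 24.4% and 28.9% with shRNA2, so all 4 shRNA libraries lay below both shluci libraries. The median peak width at shared promoters moved with it, at 200 and 284 bp with shluci and 123 to 153.5 bp with the shRNAs; the part of width in the coverage was not tested. A single base covered by a peak in all 24 lists existed at 6878 shared sites (59.3%), where that common stretch had a median of 79 bp. At 99.8% of shared sites some base was covered in at least 18 lists.

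**Figure D4:**
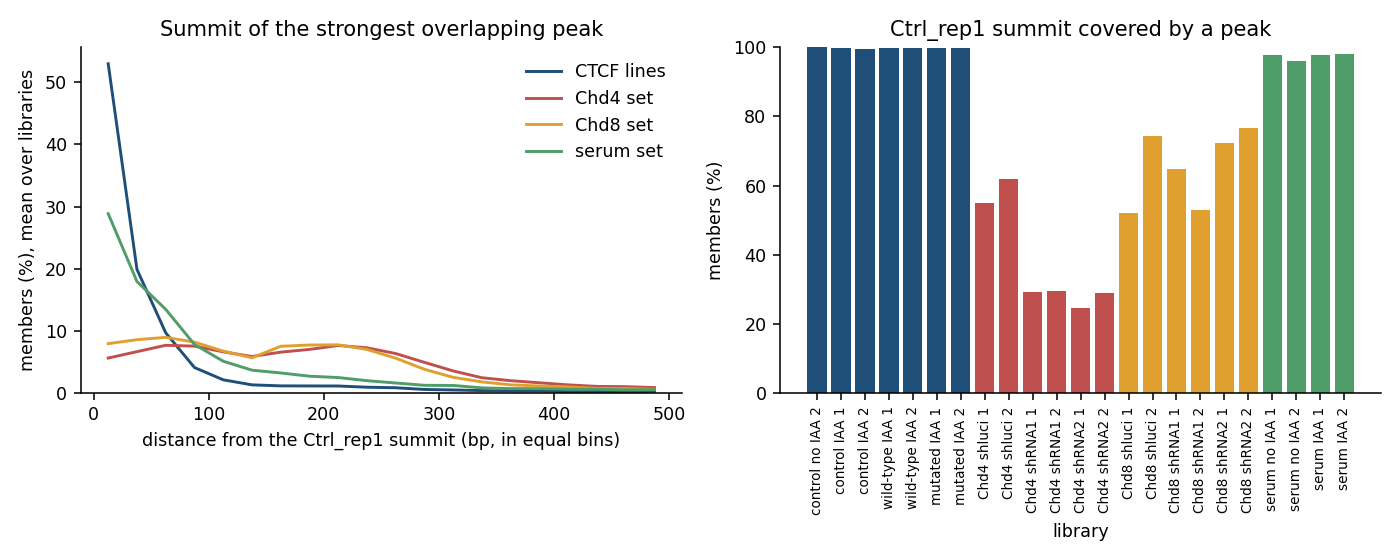
Left, distance in bp (25-bp bins) between the Ctrl_rep1 summit and the summit of the strongest overlapping peak, as the mean percentage of shared sites over the libraries of each set. Right, the percentage of shared sites whose Ctrl_rep1 summit base lies in a peak, for each of the other 23 libraries, which falls to 24.4% in Chd4 shRNA2 replicate 1.

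The order of shared sites by strength was closest within the CTCF lines. Pearson's correlation of ranks across the 11608 sites was 0.929 to 0.963 over the 28 pairs of CTCF-line libraries, 0.799 to 0.859 within the serum set, 0.677 to 0.824 within the Chd8 set and 0.344 to 0.744 within the Chd4 set. Between the CTCF lines and the other sets it was 0.616 to 0.681 for the serum set, 0.479 to 0.646 for the Chd8 set and 0.0921 to 0.483 for the Chd4 set. These are descriptions across sites of the same genome, which are not independent. Promoter sites ranked above the others by a median of 18.9 to 24 percentile points in the CTCF lines, 24.8 to 29.4 in the serum set and 11.6 to 22.9 in the Chd8 set. In the Chd4 set this promoter gap was −1.18 to 7.33 points.

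The shared site with the highest mean rank (chr9:123461798-123462190, 393 bp) lies in a 3′ UTR of Lars2, the mitochondrial leucyl-tRNA synthetase, and ranked between 99.99 and 100 in every library. Near copies of its sequence elsewhere in the genome were not examined here, so this rank may not belong to this locus alone. The promoters of Cep97 (a centriole protein that limits cilium formation), Armh4, Tasp1 (a protease that cleaves MLL proteins) and 1810022K09Rik came next, with mean ranks of 99.2, 99.2, 98.9 and 98.8. Tasp1 had the lowest single value of these 4, 92.7. The lowest mean ranks were at a site in an intron of Hcrtr2, an orexin receptor (4.51), a site 10623 bp from the start of Tra2a (5.68) and one 41459 bp from Gm25127 (5.75). The widest shared site was the 3032-bp promoter peak of Cpeb2, an mRNA-binding translational regulator, with a mean rank of 86.2. The widest after it were 2969 bp at Gm13015, with a mean rank of 15.3, and 2771 bp at the promoter of Klf13, a KLF transcription factor, with 43.5. The narrowest were 146 bp near Gm27160, 171 bp near Serpina4-ps1 and 200 bp in an intron of Cped1.

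A few shared sites held opposite places in different sets. A coding exon site of Robo3, an axon guidance receptor, ranked between 77.3 and 94.9 in the CTCF lines and 78.8 and 91.8 in the serum set. It ranked between 3.05 and 17.7 in the 12 libraries of the Chd sets. A site 24830 bp from the start of Gm23243 ranked between 0.379 and 7.38 in the CTCF lines, and between 94.5 and 99.4 in the Chd4 set. These sites were chosen for the size of their spread, so it is given as a description.

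After IAA, shared sites with a CTCF consensus ranked lower among all shared sites in both media. The level of the CTCF protein itself is not part of these data. The consensus, of 14 bp, was sought on both strands within 250 bp of the Ctrl_rep1 summit with at most 1 mismatch, and 662 shared sites (5.70%) held it, against 6.73% of other peaks. Of the 662, 250 were promoters and 123 had no mismatch. The consensus gap is the median rank of sites with the consensus minus that of sites without. In the control line it was −11.4 and −10.3 points without IAA and −22.9 and −23.1 with IAA. In the serum set it was −0.846 and −0.435 without IAA and −16.1 and −18.8 with IAA. Thus each library with IAA lay below both without in its medium.

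The change in the gap was −12.1 points (spread of the difference 0.784, SD of both groups combined) in serum-free medium and −16.8 (spread 1.92) in the serum set. By two-sided exact permutation both changes had p = 0.33, and 2 libraries against 2 allow none smaller. Over both media, by exact permutation within each medium (36 arrangements, two-sided), the mean change was −14.4 points with p = 0.0556, the smallest this design allows, and 0.367 after Benjamini-Hochberg adjustment over the 11 tests of rank gaps. The change passed no threshold of 0.05, which the design cannot reach, but was larger than the spread between replicates and had the same direction in 4 of 4 libraries. At the 250 promoters among the consensus sites it was −8.01 points, and at the 412 sites away from promoters −16.0. The difference between these was not tested. None of the gaps of 14 other motifs moved as far in either medium. Their changes ran from −2.04 to 1.79 points in serum-free medium and from −0.739 to 6.77 in the serum set. The size depends on the consensus allowed: the mean change over both media was −22.4 points at sites without mismatch and −4.27 with at most 2 mismatches.

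In the lines with added CTCF the gap after IAA was smaller in size. It was −15.3 ± 0.283 points (SD, n = 2) with wild type CTCF and −17.0 ± 0.431 with mutated CTCF, against −23.0 ± 0.125 in the control line with IAA and −10.9 ± 0.774 in the control line without. The differences from the control line with IAA were 7.65 and 5.98 points, each larger than its spread of 0.310 and 0.449, with an exact permutation p of 0.33, the smallest possible for 2 against 2. With at most 2 mismatches the differences were 0.435 and 1.00 points. The order of the wild type and mutated lines also changed at sites without mismatch (8.20 and 9.69 points), at promoters only (3.99 and 4.31) and away from promoters (6.36 and 6.72). The difference between the wild type and the mutated line was not tested.

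The place of the summit moved in the same comparison. Over the 662 consensus sites, the summit of the strongest peak lay a median of 55 and 56.5 bp from the match in the control line without IAA and 110.5 and 101.5 bp with IAA. It lay at 62.5 and 70 bp with wild type CTCF, 75 and 78.5 bp with mutated CTCF, and in the serum set at 79 and 90 bp without IAA and 144.5 and 138 bp with IAA. The match itself was inside a peak at 99.4% and 99.8% of these sites in the control line without IAA, at 93.4% and 92.7% with IAA, and at 98.0%, 98.9%, 98.3% and 97.9% in the wild type and mutated lines. In the serum set it was covered at 95% and 91.2% without IAA and 83.1% and 87.2% with IAA. The consensus was sought around the Ctrl_rep1 summit, which favours a short distance in that library. This measure was added after seeing the data and was not tested.

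Site by site, 784 of the 11608 shared sites (6.75%) ranked lower in both libraries with IAA than in both without, in each medium, and 701 (6.04%) ranked higher. Among the 662 consensus sites, 211 (31.9%) ranked lower in this way and 24 (3.63%) higher. Of the 123 without mismatch, 63 (51.2%) ranked lower and none higher. In serum-free medium alone, 330 of the 662 (49.8%) ranked lower, against 20.9% of all shared sites, and 115 (17.4%) higher, against 25.0%. In the serum set 289 (43.7%) ranked lower, against 19.2%, and 64 (9.67%) higher, against 19.9%. The 211 consensus sites comprised 56 protein-coding promoters, 55 introns, 50 intergenic sites 2 to 100 kb from a gene, 16 within 2 kb of a gene and 11 coding exons, besides smaller classes. Protein-coding promoters were 26.5% of the 211, long noncoding promoters 2.37% and other promoters 1.90%. Promoters of all kinds were 37.8% of the 662. All 211 remained called in every list, as the rule requires.

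The 211 sites were chosen for their fall with IAA, so their level in those libraries is a description. Their median rank was 37.9 and 38.7 in the control line without IAA and 10.0 and 10.1 with IAA, and 53.2 and 53.9 in the serum set without IAA and 14.8 and 16.5 with IAA. In the wild type CTCF line, which the choice did not use, it was 26.8 and 27.5, and in the mutated line 23.5 and 24.1. Both libraries of the wild type line ranked above both of the control line with IAA at 160 of the 211 sites (75.8%), and both of the mutated line at 147 (69.7%). As the choice took sites at a low rank in the control line with IAA, some return is built into these counts. In the serum set with IAA, which the choice also used, both libraries ranked above both of the control line with IAA at 99 of the 211 (46.9%). No such count is given for all consensus sites or all shared sites, so the size of this return is unknown.

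**Figure D5:**
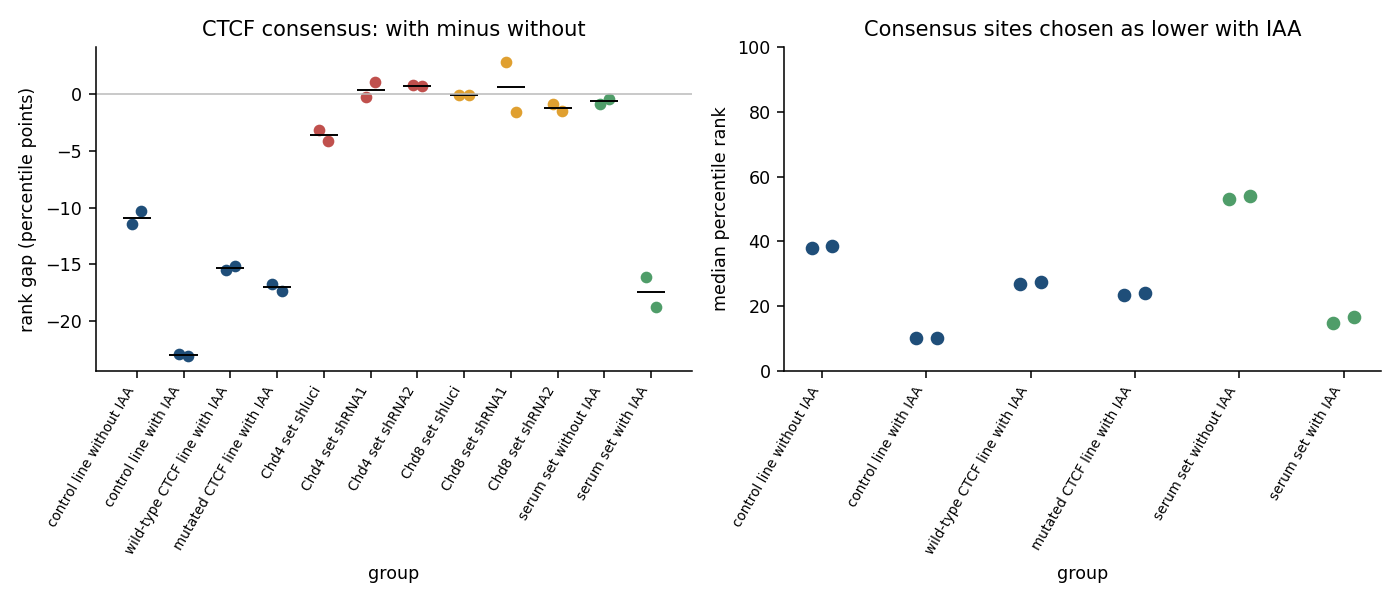
Left, the consensus gap in percentile points (median rank of shared sites with the CTCF consensus minus that of sites without) for each library, with the group mean as a line. Right, the median percentile rank of the 211 consensus sites chosen as lower with IAA in both media, per library; the wild type line stands at 26.8 and 27.5 and the mutated line at 23.5 and 24.1.

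The largest fall was at an intergenic site near Gm47372 (chr12:98674662-98675175, 514 bp), whose consensus match is printed above. It ranked 73.4 and 70.2 in the control line without IAA and 0.732 and 0.267 with IAA. In the wild type line it ranked 42.3 and 44.2, and in the mutated line 27.4 and 15.5. In the serum set it ranked 96.3 and 98.8 without IAA and 1.53 and 7.03 with IAA. In the 12 libraries of the Chd sets, none with IAA, it ranked between 99.1 and 99.9. The sites near Gm25663 and in the coding exon of Lpar5 changed by −41.2 and −49.8 points in serum-free medium and by −86.3 and −68.5 in the serum set. The promoter site of C1rl, a complement protease-like gene, changed by −46.6 and −64.3 points in these media.

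Of the sites that ranked higher with IAA in both media, the 3 with the largest rise hold no consensus match within 1 mismatch. They lie 51354 bp from the start of Gm25599, in an intron of Fyb (an adaptor protein of T cells) and 23178 bp from AC113491.1. Their ranks rose by 20.5, 29.5 and 12.2 points in serum-free medium and by 52.5, 43.3 and 50.3 in the serum set.

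Hairpins against Chd4 were set beside shluci by the same gaps. The consensus gap was −3.12 and −4.15 points with shluci, −0.267 and 1.06 with shRNA1 and 0.810 and 0.681 with shRNA2. All 4 shRNA libraries lay above both shluci libraries, by 4.21 points on average (spread 0.932; exact permutation, two-sided, p = 0.0667, the smallest possible; adjusted p = 0.367). With the 123 sites without mismatch only, the difference was −3.68 points (exact permutation p = 0.467), so its direction depends on the consensus allowed. Its size also varied, at 1.93 points with at most 2 mismatches, 8.13 within 50 bp of the summit and 2.56 with ranks by the authors' fold. It was 0.438 points at promoters and 7.32 away from them. The consensus match lay inside a peak at 38.4% and 45.2% of the 662 sites with shluci and at 15.4% to 19.5% with the shRNAs, and the part of this coverage in the gap was not tested. The promoter gap was 0.717 and 0.424 points with shluci, 7.33 and 5.48 with shRNA1 and −1.18 and 4.13 with shRNA2. The mean difference of 3.37 points was below its spread of 3.66 (exact permutation p = 0.33). Leaving out shRNA2 replicate 1 gave 5.08 points and leaving out shRNA1 replicate 1 gave 2.24.

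For Chd8, the consensus gap was −0.0926 and −0.0603 points with shluci, 2.82 and −1.54 with shRNA1 and −0.905 and −1.47 with shRNA2. The mean difference of −0.198 points was within its spread of 2.08 (exact permutation p = 1). The promoter gap was 12.6 and 22.9 points with shluci, 20.3 and 11.6 with shRNA1 and 14.9 and 16.6 with shRNA2, a difference of −1.92 points within its spread of 8.10 (exact permutation p = 0.667). Leaving out shluci replicate 2 turned this difference to 3.21 points.

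The promoter gap did not move with IAA beyond its spread. The gap averaged 24.9 points in both conditions over both media, a difference of 0.0468 with a spread of 1.97 (exact permutation within each medium, p = 0.944). Between media without IAA it was 21.6 ± 0.355 points (SD, n = 2) in the control line and 28.2 ± 1.32 in the serum set, a difference of 6.58 points with a spread of 1.37 (exact permutation p = 0.33, the smallest possible). Medium, line and library set cannot be told apart in this comparison.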

How the data were processed

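Each of the 24 libraries had 1 peak list in the narrowPeak layout. The submitters' processing notes name mm10, Trim Galore, Bowtie2, MACS2 and deepTools, without versions or roles; filters and any pooling are not given in the sources used here. The interval bounds and summit offsets (other units) were used as deposited by the authors. The deposited fold is the authors' ratio of a peak to its background. The deposited −log10 p and −log10 q values are the authors' scores of a peak within its list. These values were used only within a list. Read depth is unknown.

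Members, motifs and gene lists were chosen with earlier results of these data known, and the regions named by a fixed rule: highest, lowest, widest, narrowest, most variable, farthest from a start, most changed with IAA, strongest near misses, and 8 chosen promoters. Sites farthest from a start and 1 of the 5 consensus sites most changed with IAA are not reported here. All peaks lay within GRCm38 chromosome lengths. Classes used the GENCODE basic annotation of GRCm38 (72111 starts on chromosomes 1 to 19), in the order promoter, UTR, coding exon, noncoding exon, intron, intergenic. In each library the strongest overlapping peak of each site was ranked by −log10 p among the 11608 sites, so that list length does not enter. Gaps between median ranks were compared by exact permutation over libraries. Overlap, rank and permutation code was checked on simulated lists with known answers. Python 3.11.15, numpy 2.4.6, pandas 2.3.3 and pysam 0.24.0 were used.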

Additional observations from a re-analysis of the deposited data

How the results depend on the processing

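The number of shared sites depends on what counts as found. It was 49 when each list had to cover at least 50% of the Ctrl_rep1 peak, 756 with peaks of −log10 q of at least 10, 6544 with lists reduced to 58408 peaks, and 11004 with a summit inside the peak. Settings chosen after seeing the data gave 6878 with a base covered in all 24 lists and 24514 without the Chd4 lists. Setting aside single lists gave 11608 to 13056, and other reference lists 8659 to 11807. The promoter share was 49.1% within 1000 bp, 52.2% within 2000 bp, 20.4% of the 49 sites, 48.3% of the 6878 and 42.2% of the 24514. The consensus share was 1.06% without mismatch, 26.6% with at most 2 and 2.70% within 50 bp of the summit. The change of the consensus gap with IAA kept its direction under every setting run, −15.1 to −13.8 over both media when single libraries were left out, and −15.5 without the Chd4 lists. Only 1 of the 49 sites held the consensus, so that alternative could not be run. The Chd4 consensus difference reversed without mismatch (−3.68); left-out libraries gave 3.69 to 4.73. The Chd8 consensus difference reversed with the longest overlap (0.194) and at promoters only (3.14), and left-out libraries gave −1.23 to 0.224. The promoter gap with IAA reversed within 2000 bp (−0.417), and left-out libraries gave −1.11 to 1.21; for Chd8 they gave −7.05 to 3.21. Replicate numbers are only shared: deviations of same-numbered libraries correlated between −0.209 and 0.0501. With the replicate block the IAA change over both media was −14.4 with an exact permutation p of 0.125, and no block or crossed pairing of the wild type or mutated lines gave a call.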
